A study of Mus musculus with 9 samples.

Results

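The genes described here encode the contractile and calcium-handling machinery of skeletal muscle fibres, measured in mouse ear skin. They were chosen by symbol: 35 genes of the sarcomere, the calcium stores and the fuel supply of striated muscle, each taken through the probe sets (short groups of oligonucleotides on the array) that the array annotation gives to that symbol alone. Of the 35 symbols, 34 had a probe set, 58 probe sets in all out of 45101 on the array. Xirp2 had none in the annotation used here. Where a gene had several probe sets, the one with the highest mean over the 9 arrays stood for it. All 34 genes were among the 14122 genes bright enough to test, out of 18193 on the array. The test took genes above an array's 40th percentile in at least 3 arrays, and no member passed through one treatment only, since the lowest signal of any member in any array, 93.9 for Cav3 in vehicle replicate 2, was above that percentile.

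The 9 arrays each held total RNA from the ear skin of C57BL/6 mice, taken 6 h after topical treatment. They were 3 arrays of ears given DNFB, which the labels call a chemical allergen, 3 of ears given BAC, called a skin irritant, and 3 of ears given only the acetone and olive oil vehicle. The compounds were put on right ears and the vehicle on left ears, so side and treatment cannot be told apart. The labels give no dose, sex or age and name no genotype beyond the strain. They do not say whether replicates came from separate animals or whether the right and left ears of 1 mouse carry the same replicate number. The p-values below therefore set group differences only against the spread of these samples within their groups. That spread may be technical, so the p-values may not extend to other mice. With 3 arrays a group, the number of arrays limits the precision of every value.

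Skeletal muscle contracts when thick filaments of myosin pull on thin filaments of actin inside the sarcomere, the repeating unit bounded by Z-discs. Calcium released from the sarcoplasmic reticulum binds troponin on the thin filament and permits contraction, and a calcium pump then returns it to the store. Fast and slow fibres use different genes for several of these parts. The outer ear carries small striated muscles, mainly towards its base, so a piece of ear taken as skin can hold muscle fibres beside epidermis, dermis, fat and cartilage. In a bulk RNA sample, fewer muscle fibres and less muscle RNA per fibre cannot be told apart.

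Many muscle genes carry, before their start, E-boxes, short sites of which some are bound by MyoD and related factors. Some also carry binding sites of the MEF2 and SRF factors. Of the 35 members, 27 had an entry in the RefSeq promoter table (build GRCm38.p6), and the 250 bases before the start were searched on both strands. The E-box letters CANNTG, which read alike on both strands, occurred before 23 of the 27 members (85.2%) and before 69.3% of the 27018 genes in the table. The MEF2 site occurred before 2 of 27 members (7.41%) and 0.592% of all genes, the SRF site, called the CArG box, before 3 of 27 (11.1%) and 1.62%, and the letters TATAAA before 5 of 27 (18.5%) and 14.3%. These are matches of letters, not measured binding, and CANNTG also takes in sites of factors other than MyoD. The sequences of 4 members whose signals are described below are shown as examples of genes from the thin filament, the Z-disc and the calcium store, 5′ to 3′ and ending at the base before the start. Capitals mark E-boxes and, in Acta1 only among these 4, also the CArG box, the capital run that is nearest to the start. For Atp2a1 the start used lies inside the annotated gene, which reaches to base 126463103 of chr7, so the last bases shown overlap it. The regions are chr8:123894776-123895025 on the minus strand for Acta1, chr2:164779735-164779984 on the minus strand for Tnnc2, chr13:12340733-12340982 on the minus strand for Actn2, and chr7:126463074-126463323 on the minus strand for Atp2a1.
Acta1: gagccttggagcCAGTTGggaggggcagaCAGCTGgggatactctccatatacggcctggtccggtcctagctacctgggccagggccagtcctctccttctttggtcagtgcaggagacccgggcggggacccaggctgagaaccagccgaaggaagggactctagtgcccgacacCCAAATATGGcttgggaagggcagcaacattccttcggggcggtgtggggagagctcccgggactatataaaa
Tnnc2: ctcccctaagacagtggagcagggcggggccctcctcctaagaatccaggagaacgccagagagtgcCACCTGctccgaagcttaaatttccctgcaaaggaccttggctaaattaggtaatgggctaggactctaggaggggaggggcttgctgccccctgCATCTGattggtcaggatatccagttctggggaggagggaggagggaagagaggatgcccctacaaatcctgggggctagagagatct
Actn2: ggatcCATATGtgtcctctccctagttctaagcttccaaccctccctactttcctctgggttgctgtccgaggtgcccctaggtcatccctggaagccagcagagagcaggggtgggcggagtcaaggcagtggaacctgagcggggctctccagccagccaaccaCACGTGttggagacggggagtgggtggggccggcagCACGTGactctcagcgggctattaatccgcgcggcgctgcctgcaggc
Atp2a1: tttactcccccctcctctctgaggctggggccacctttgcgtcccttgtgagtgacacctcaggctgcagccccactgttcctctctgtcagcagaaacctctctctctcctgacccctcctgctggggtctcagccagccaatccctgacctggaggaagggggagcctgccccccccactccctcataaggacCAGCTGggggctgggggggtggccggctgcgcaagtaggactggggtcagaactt

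The joint level of the muscle genes, the mean of log2(signal + 16) over the 34 members, differed about as much between arrays of one treatment as between treatments. It was 10.47, 10.82 and 10.78 in DNFB replicates 1 to 3, 10.26, 10.56 and 10.84 in BAC replicates 1 to 3, and 10.10, 10.19 and 10.59 in vehicle replicates 1 to 3. The groups overlapped: BAC 3 had the highest joint level of the 9 arrays, vehicle 3 ranked 4 and stood above DNFB 1, BAC 1 and BAC 2, and vehicle 1 was the lowest. The mean joint level was 10.69 ± 0.19 with DNFB, 10.55 ± 0.29 with BAC and 10.29 ± 0.26 with vehicle (SD, n = 3 each). DNFB minus vehicle was 0.40, BAC minus vehicle 0.26 and DNFB minus BAC 0.14 on this log2 scale. The plain sum of the 34 signals was 90769, 114489 and 106913 in the DNFB arrays, 73922, 90087 and 110715 in the BAC arrays, and 65248, 73005 and 86382 in the vehicle arrays. By this sum all 3 DNFB arrays lay above all 3 vehicle arrays, while by the joint log2 level they did not.

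**Figure D1:**
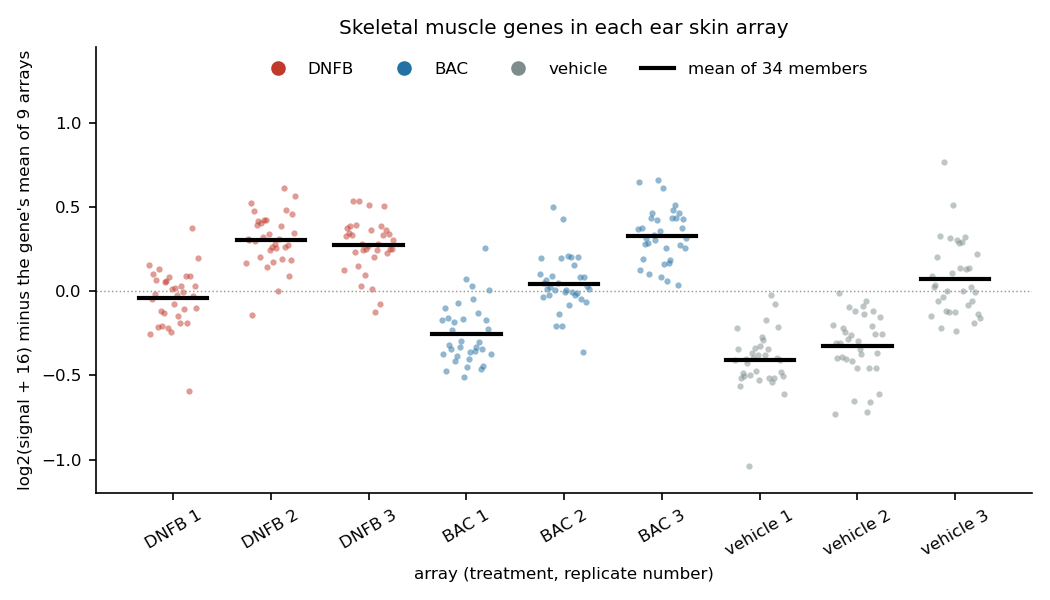
Level of each of the 34 muscle genes (points) in each of the 9 arrays, as log2(signal + 16) minus that gene's mean over the arrays, with the mean of the 34 genes as a black line, DNFB arrays left, BAC arrays in the middle and vehicle arrays right. The points of an array move together, BAC 3 and DNFB 2 stand highest, and vehicle 3 stands above the other two vehicle arrays.

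Within each treatment most members ordered the arrays alike. Vehicle 3 had the highest signal of the 3 vehicle arrays for 34 of 34 members, against 34.6% of all tested genes. BAC 3 was the highest BAC array for 30 of 34 (33.9% of tested genes) and BAC 1 the lowest for 31 of 34 (32.4%). DNFB 1 was the lowest DNFB array for 30 of 34 members (37.2%). The sizes were of the order of the treatment differences: the median member stood 0.37 above the mean of the other two vehicle arrays in vehicle 3 and 0.44 above that of the other two BAC arrays in BAC 3, and it stood lower in BAC 1 by a log2 difference of -0.46 and in DNFB 1 by -0.33. The medians over all tested genes in these 4 arrays lay between -0.0034 and 0.013. Over all 9 arrays, the highest signal fell in DNFB 2 for 12 members, in BAC 3 for 10, in DNFB 3 for 6 and in vehicle 3 for 4, and the lowest in vehicle 1 for 18, in vehicle 2 for 9, in BAC 1 for 5 and in DNFB 1 for 2. Cav3 alone had its highest signal in DNFB 1.

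**Figure D2:**
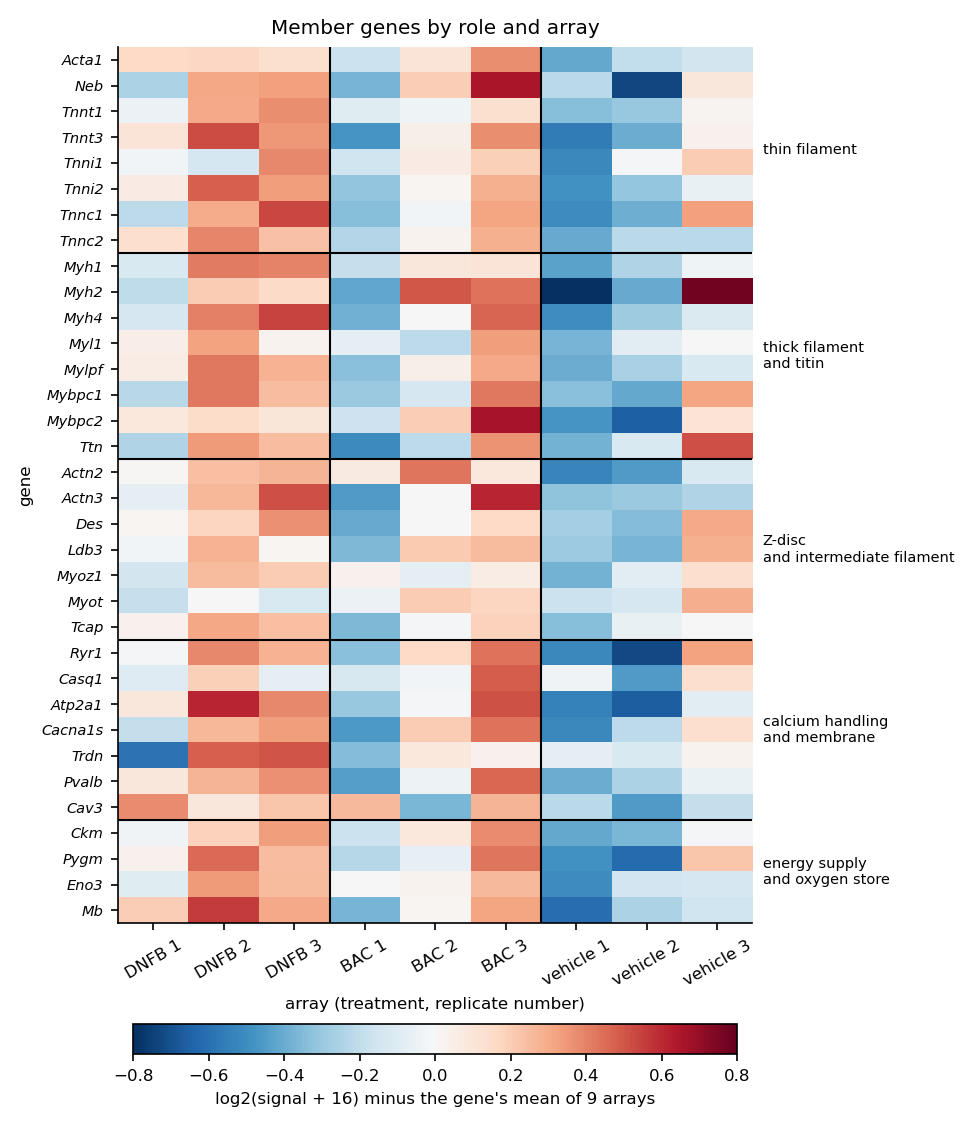
Heat map of the 34 members (rows, grouped by role) in the 9 arrays (columns, DNFB left, then BAC, then vehicle), coloured by log2(signal + 16) minus the gene's mean over the arrays. Whole columns share a colour: DNFB 2, DNFB 3 and BAC 3 are mostly above the mean, and BAC 1, vehicle 1 and vehicle 2 mostly below it.

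DNFB against vehicle asks how right ears given the allergen differed from left ears given vehicle at 6 h. Of the 34 members, 10 were higher in the DNFB arrays and 0 were lower, from each of the 5 roles at least 1: Acta1, Tnnt3, Tnni2 and Tnnc2 of the thin filament, Myh1 and Mylpf of the thick filament, Actn2 of the Z-disc, Atp2a1 of the calcium store, and Eno3 and Mb of the fuel and oxygen supply. That is 29.4% of the members, where 6.76% of all tested genes were called higher and 7.08% lower (13.8% in either direction). A call means an adjusted p under 0.05 from limma's moderated test, Benjamini-Hochberg adjusted over all 14122 genes. The median log2 change of the members was 0.42 (a fold of 1.34) and that of all tested genes 0.00, and 33 of 34 members were above 0. For 14 members the 3 DNFB arrays lay above the 3 vehicle arrays, 41.2% of them, against 15.2% of tested genes. The number of calls rested on single arrays. It was 1 without vehicle 1 and 1 without DNFB 2, 3 without DNFB 3, 5 without vehicle 2 and 7 without BAC 2. It was 12 without vehicle 3, DNFB 1, BAC 1 or BAC 3. All tested genes gave 1955 calls in the main fit, 1276 without vehicle 1 and 1437 without DNFB 2. They gave 1641 without DNFB 3, 1801 without vehicle 2 and 1249 without vehicle 3. The joint difference stayed between 0.30 and 0.55 without any 1 array.

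Thin filament genes gave 4 calls of 8 with DNFB, all higher, beside 2 of 4 for the energy and oxygen genes. Of all tested genes 6.76% were called higher. Acta1, skeletal actin itself, had signals of 10383, 10436 and 10166 in DNFB replicates 1 to 3, 8258, 9996 and 12042 in BAC and 7019, 8110.4 and 8408 in vehicle. The DNFB arrays all lay above the vehicle arrays, with BAC 3 above both, and Acta1 changed by 0.40 ± 0.12 (SE, adjusted p = 0.0423) with DNFB. Tnnc2 encodes the calcium-binding troponin subunit of fast fibres, with signals of 9616, 11514 and 10289 in DNFB replicates 1 to 3, 7454, 8930.5 and 10663 in BAC and 6620.2, 7532 and 7536 in vehicle. Every DNFB array exceeded every vehicle array, and the log2 change was 0.53 ± 0.12 (SE, adjusted p = 0.00929). Tnni2, the inhibitory troponin subunit of fast fibres, read 5799, 7729.6 and 6999 in DNFB replicates 1 to 3, 4447, 5604 and 6754 in BAC and 3965, 4472 and 5319 in vehicle. Again the DNFB and vehicle arrays were apart, at 0.58 ± 0.15 (SE, adjusted p = 0.0189). Averaged with its other probe sets, of which 1 read 39.5 or less in every array, Tnni2 was at 0.17 (adjusted p = 0.681, the range over 20 alternatives being 0.00345 to 0.681). Tnnt3 encodes the fast subunit that ties troponin to tropomyosin, and it read 3458, 4633 and 4099 in DNFB replicates 1 to 3, 2314, 3322 and 4175 in BAC and 2175, 2437 and 3297 in vehicle. DNFB 1 cleared vehicle 3 only narrowly, and the change was 0.63 ± 0.19 (SE, adjusted p = 0.0366). Neb encodes nebulin, the giant protein that runs along the thin filament, with 456, 681 and 692 in DNFB replicates 1 to 3, 418, 629.95 and 868 in BAC and 468, 323 and 584 in vehicle. Its arrays overlapped throughout, with BAC 3 highest and vehicle 2 lowest, and the log2 difference with DNFB was 0.41 ± 0.25 (SE, adjusted p = 0.316). The slow-fibre troponins Tnnt1, Tnni1 and Tnnc1 are given with the fast and slow forms below.

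Among the 8 genes of the thick filament and titin, 2 were called higher with DNFB. Mylpf, the fast regulatory light chain of myosin, had signals of 5199.7, 6697 and 6062 in DNFB replicates 1 to 3, 3957, 5151 and 6168 in BAC and 3778, 4157 and 4583 in vehicle. The DNFB arrays were above the vehicle arrays, and the change was 0.52 ± 0.14 (SE, adjusted p = 0.027). Myh1, a fast myosin heavy chain (type IIx), gave 5591, 8119.9 and 7996 in DNFB replicates 1 to 3, 5353, 6479 and 6522 in BAC and 4508, 5142 and 5928 in vehicle. Here DNFB 1 lay below vehicle 3, so the groups overlapped, and the change was 0.47 ± 0.14 (SE, adjusted p = 0.0438). Myh4, the heavy chain of the fastest fibres (type IIb), gave 2767, 4024 and 4415 in DNFB replicates 1 to 3, 2317, 3045 and 4199 in BAC and 2144, 2494 and 2801 in vehicle. DNFB 1 again lay below vehicle 3, and its change of 0.57 ± 0.20 (SE, adjusted p = 0.0683) missed the threshold. Myl1, an essential light chain of fast myosin, gave 6526, 7865 and 6415 in DNFB replicates 1 to 3, 5969.9, 5436 and 7933 in BAC and 4858, 5890.1 and 6276 in vehicle. Its 3 DNFB arrays were above its 3 vehicle arrays by a small margin, at 0.29 ± 0.14 (SE, adjusted p = 0.205). Mybpc2, the fast form of myosin-binding protein C, read 214, 224 and 216 in DNFB replicates 1 to 3, 177, 233 and 327 in BAC and 141, 122 and 218 in vehicle. Vehicle 3 reached the level of the DNFB arrays, and the log2 difference was 0.45 ± 0.23 (SE, adjusted p = 0.233). Ttn, titin, the elastic protein that holds the thick filament in place, was at 0.11 ± 0.23 (SE, adjusted p = 0.818) with DNFB, Mybpc1, the slow form of myosin-binding protein C, at 0.29 ± 0.21 (SE, adjusted p = 0.428), and Myh2, the heavy chain of type IIa fibres, at 0.27 ± 0.33 (SE, adjusted p = 0.67). Myh2 had the widest vehicle range of all members, 416 in vehicle 1 and 1494 in vehicle 3, a span of 1.81 log2 units.

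Z-disc and intermediate filament genes gave 1 call of 7. Actn2, the alpha-actinin that cross-links thin filaments at the Z-disc, had signals of 821, 967 and 986 in DNFB replicates 1 to 3, 858, 1102 and 866 in BAC and 559, 589.5 and 746 in vehicle. Both treated groups lay above the vehicle arrays, and Actn2 was the one member called in both comparisons with vehicle, at 0.54 ± 0.14 (SE, adjusted p = 0.0173) with DNFB and 0.57 ± 0.14 (SE, adjusted p = 0.0141) with BAC. Des, desmin, the intermediate filament that links neighbouring Z-discs, read 1169, 1301 and 1488 in DNFB replicates 1 to 3, 867, 1157 and 1293 in BAC and 953, 906 and 1429 in vehicle. Vehicle 3 lay among the DNFB arrays, and the log2 difference was 0.29 ± 0.18 (SE, adjusted p = 0.33). Tcap, telethonin, which caps titin at the Z-disc, gave 4576, 5542 and 5301 in DNFB replicates 1 to 3, 3493, 4454 and 5098 in BAC and 3526, 4297 and 4472 in vehicle. Its DNFB arrays were above the vehicle arrays, and the log2 difference was 0.33 ± 0.14 (SE, adjusted p = 0.137). Myot, myotilin, which bundles actin at the Z-disc, was the one member with a DNFB change under 0, at -0.10 ± 0.13 (SE, adjusted p = 0.713), and vehicle 3 held its highest signal of the 9 arrays, 1264. It read 905, 1032 and 947 in DNFB replicates 1 to 3, 997, 1191 and 1162 in BAC and 914, 937 and 1264 in vehicle. Actn3, the alpha-actinin of fast fibres, was at 0.52 ± 0.21 (SE, adjusted p = 0.132), with all DNFB arrays above all vehicle arrays. Ldb3, a Z-disc adaptor protein, was at 0.22 ± 0.19 (SE, adjusted p = 0.515) and Myoz1, a calcineurin-binding Z-disc protein, at 0.21 ± 0.14 (SE, adjusted p = 0.387).

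Of the 7 genes of calcium handling and the muscle membrane, 1 was called. Atp2a1, the SERCA1 pump that returns calcium to the store of fast fibres, averaged 7975 ± 1424 with DNFB, 6602 ± 1940.3 with BAC and 4631 ± 1025 with vehicle (SD, n = 3 each). Its single signals were 6526, 9373 and 8025 in DNFB replicates 1 to 3, 4972, 6087 and 8748 in BAC and 4213, 3882 and 5799 in vehicle. DNFB 1 was above every vehicle array, and the change of 0.79 ± 0.19 (SE, adjusted p = 0.0116), a fold of 1.73, was the largest of the 34 members with DNFB. Pvalb, parvalbumin, a calcium buffer of fast fibres, gave 2771, 3141 and 3351 in DNFB replicates 1 to 3, 1908, 2519 and 3583 in BAC and 1966, 2178 and 2498 in vehicle. The DNFB arrays were above the vehicle arrays, but its change of 0.48 ± 0.17 (SE, adjusted p = 0.0833) missed the threshold. Casq1, calsequestrin, which holds calcium inside the store, gave 837, 1029 and 854 in DNFB replicates 1 to 3, 822, 888 and 1265 in BAC and 884, 653 and 989 in vehicle. Its groups overlapped, and the log2 difference was 0.12 ± 0.17 (SE, adjusted p = 0.727). Ryr1, the calcium release channel, was at 0.53 ± 0.23 (SE, adjusted p = 0.163), Cacna1s, the voltage sensor that opens it, at 0.33 ± 0.24 (SE, adjusted p = 0.418), and Trdn, triadin, which anchors calsequestrin near the channel, at 0.19 ± 0.23 (SE, adjusted p = 0.664). Trdn in DNFB 1 had the lowest signal of the 9 arrays, 445, against 953 and 969 in the other DNFB arrays. Cav3, the caveolin of muscle membranes, was at 0.52 ± 0.22 (SE, adjusted p = 0.148), with the DNFB arrays above the vehicle arrays.

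Among the 4 energy and oxygen genes 2 were called, and the median log2 change with DNFB was 0.48. Mb, myoglobin, the oxygen store of muscle, averaged 9358 ± 1241 with DNFB, 7341 ± 1726 with BAC and 5783 ± 910.4 with vehicle (SD, n = 3 each). Its signals were 8352, 10745 and 8977 in DNFB replicates 1 to 3, 5618, 7337 and 9069 in BAC and 4759, 6092 and 6499 in vehicle. All DNFB arrays exceeded all vehicle arrays, and the change was 0.70 ± 0.16 (SE, adjusted p = 0.00836), the smallest adjusted p of the members with the brightest probe set taken for each gene. With the 2 probe sets of Mb averaged, the second of which read 45.1 or less in every array and was above the 40th percentile in 0 of 9, the difference was 0.11 (adjusted p = 0.757, the range over 20 alternatives being 0.00174 to 0.757). Eno3, the muscle enolase of glycolysis, gave 1826, 2488 and 2335 in DNFB replicates 1 to 3, 1965, 2000.1 and 2346 in BAC and 1377, 1761 and 1781 in vehicle. Both treated groups were above the vehicle arrays, DNFB 1 only just, and the change with DNFB was 0.43 ± 0.14 (SE, adjusted p = 0.0481). Ckm, muscle creatine kinase, which refills ATP from phosphocreatine, gave 4414, 5115 and 5689 in DNFB replicates 1 to 3, 3990.3, 4780.3 and 5849.6 in BAC and 3382, 3491 and 4476 in vehicle. DNFB 1 lay below vehicle 3, and the change of 0.43 ± 0.15 (SE, adjusted p = 0.0675) missed the threshold. Pygm, the muscle glycogen phosphorylase, was at 0.54 ± 0.21 (SE, adjusted p = 0.11).

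BAC against vehicle asks the same of the irritant, with the same 3 vehicle arrays, so the 2 comparisons are not independent. In the BAC arrays 1 member of 34 was called higher, Actn2, and 0 lower, where 6.59% of tested genes were called higher and 7.64% lower (14.2% in either direction). At an unadjusted p under 0.05, 7 members passed. The share of all tested genes at that unadjusted threshold was not taken, here or for the unadjusted counts below, so these counts are not read further. The median member change was 0.27 (a fold of 1.21), that of all tested genes -0.03, and 32 of 34 members were above 0. The 3 BAC arrays lay above the 3 vehicle arrays for 2 members, Actn2 and Eno3, against 14.9% of tested genes. The log2 difference was 0.35 ± 0.12 (SE, adjusted p = 0.0728) for Acta1, 0.31 ± 0.12 (SE, adjusted p = 0.121) for Tnnc2, 0.49 ± 0.19 (SE, adjusted p = 0.103) for Atp2a1, 0.33 ± 0.16 (SE, adjusted p = 0.198) for Mb and 0.36 ± 0.15 (SE, adjusted p = 0.12) for Ckm. None of these passed, and in each of them BAC 1 overlapped the vehicle arrays while BAC 3 stood above them. Ttn, at -0.12 ± 0.23 (SE, adjusted p = 0.775), and Trdn, at -0.02 ± 0.23 (SE, adjusted p = 0.97), were the members under 0. The count of calls was 8 without BAC 1, 5 without vehicle 3, 0 without vehicle 1 and 0 without BAC 2. All tested genes gave 2009 calls in the main fit, 1745 without BAC 1 and 1419 without vehicle 3. They gave 1225 without vehicle 1 and 1371 without BAC 2. The joint difference lay between 0.12 without BAC 3 and 0.41 without BAC 1.

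**Figure D3:**
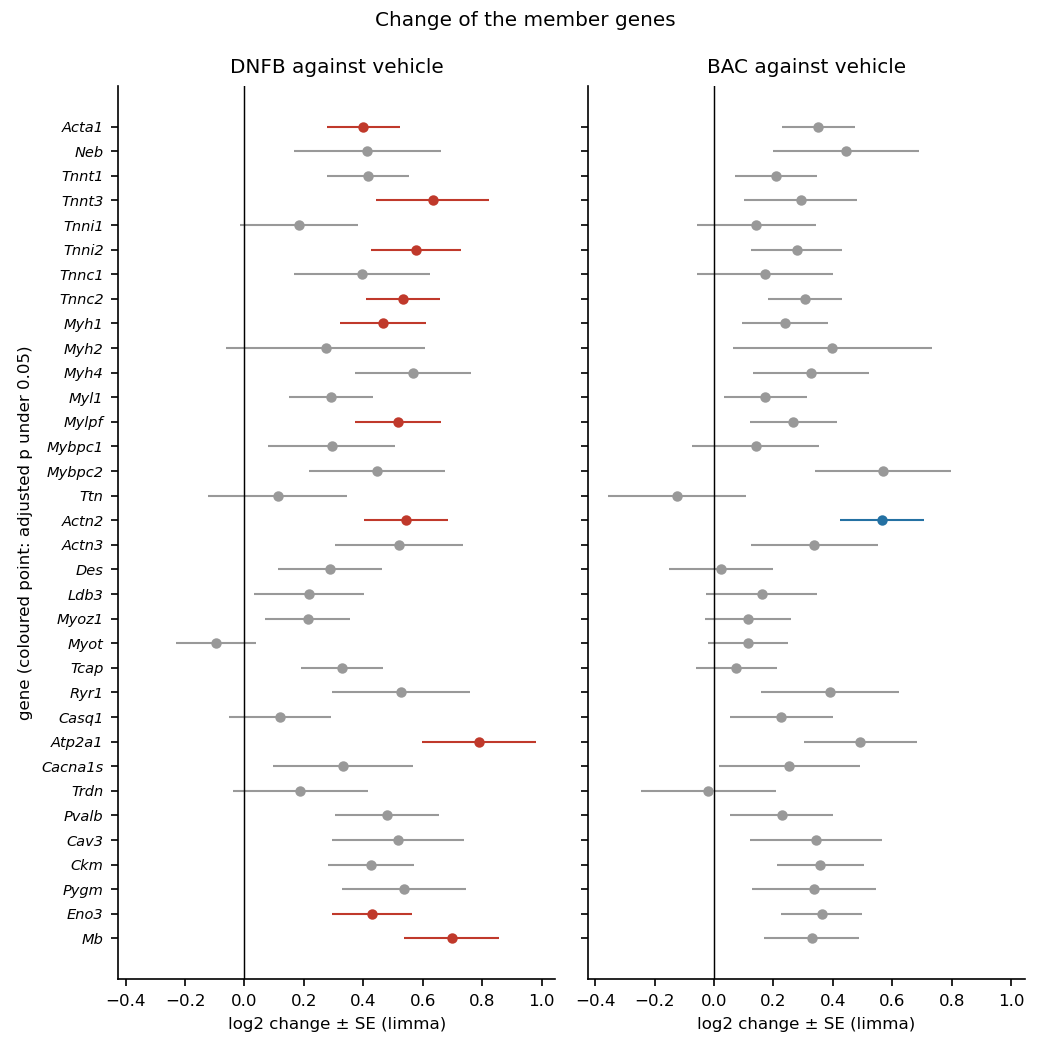
Log2 change ± SE of each member (rows, ordered by role) for DNFB against vehicle (left) and BAC against vehicle (right), with the called members in colour. Of the 34 members, 33 lie right of 0 with DNFB and 32 with BAC, while 10 are called with DNFB and 1 with BAC.

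DNFB against BAC asks whether the 2 compounds differed in these genes. In limma's test 0 of 34 members were called in either direction, where 6.8% of tested genes were called, and 1 passed an unadjusted p under 0.05, Mb. The median change was 0.18, against 0.03 over all tested genes, and 28 of 34 members were above 0. The log2 difference, DNFB minus BAC, was 0.37 ± 0.16 (SE, adjusted p = 0.197) for Mb, 0.34 ± 0.19 (SE, adjusted p = 0.318) for Tnnt3, 0.30 ± 0.15 (SE, adjusted p = 0.275) for Tnni2 and 0.30 ± 0.19 (SE, adjusted p = 0.4) for Atp2a1, and in all of them BAC 3 lay within the DNFB range. Actn2 was at -0.02 ± 0.14 (SE, adjusted p = 0.954) and Acta1 at 0.05 ± 0.12 (SE, adjusted p = 0.861). The SE of the members' changes lay between 0.12 and 0.33, so a change of the size of the median was not detectable with 3 arrays a group. The joint difference was 0.28 without BAC 3, 0.08 without DNFB 2 and -0.01 without BAC 1.

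Fast and slow forms of the same protein could be set side by side, as a grouping made after the values were seen and so without a test. Of 13 fast-fibre genes (Tnnt3, Tnni2, Tnnc2, Myh1, Myh2, Myh4, Mylpf, Myl1, Mybpc2, Atp2a1, Casq1, Pvalb and Actn3), 6 were called higher with DNFB, where 6.76% of all tested genes were, with a median log2 change of 0.52 and a range of 0.12 to 0.79. Of 9 genes of slow fibres (Tnnt1, Tnni1, Tnnc1, Myh7, Myl2, Myl3, Mybpc1, Atp2a2 and Casq2, of which Atp2a2 is also made in other cells), 0 were called, with a median of 0.28 and a range of 0.10 to 0.42. Among the slow troponins, Tnnt1 read 972, 1244 and 1308 in DNFB replicates 1 to 3, 939, 982 and 1101 in BAC and 789.99, 811 and 1023 in vehicle. DNFB 1 lay below vehicle 3, and the difference was 0.42 ± 0.14 (SE, adjusted p = 0.058), where its fast counterpart Tnnt3 was at 0.63. The slow troponin I gene Tnni1 was at 0.18 ± 0.20 (SE, adjusted p = 0.626), where the fast Tnni2 was at 0.58, and the slow troponin C gene Tnnc1 at 0.40 ± 0.23 (SE, adjusted p = 0.301), where the fast Tnnc2 was at 0.53. With BAC the medians were 0.29 for the fast genes and 0.17 for the slow genes, and 0 of either were called. The 6 called fast genes were also brighter than the 9 slow genes. Their mean log2 levels were 11.66 (Tnnt3) to 13.10 (Tnnc2), against 7.24 (Casq2) to 11.51 (Atp2a2). The fast genes not called ranged from 7.76 (Mybpc2) to 12.62 (Myl1). Whether fast and slow genes differed, and the part of signal level in the calls, was not tested.

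The other genes of the same pathways, 98 in 5 lists, gave 83 tested genes. They were listed by pathway and not for being confined to muscle, and which cells of the ear gave their calls was not tested. With DNFB 15 of the 83 were higher (18.1%, against 6.76% of all tested genes) and 2 lower (7.08% of all), and with BAC 9 were higher (10.8%, against 6.59% of all) and 1 lower (7.64% of all), with 0 called between DNFB and BAC and 3 at an unadjusted p under 0.05. The 29 tested sarcomere genes held 9 of the 15 higher calls with DNFB and 5 of the 9 with BAC, and their median log2 changes were 0.33 with DNFB and 0.27 with BAC. Among the calcium genes 3 of 16 were higher with DNFB, which were Sln, sarcolipin, an inhibitor of the calcium pump, at 0.56 ± 0.17 (SE, adjusted p = 0.0368), Cacna2d1, a calcium channel subunit, at 0.52 ± 0.16 (SE, adjusted p = 0.0428), and Fkbp1a, which binds the release channel, at 0.30 ± 0.09 (SE, adjusted p = 0.0475). Sln was at 0.28 ± 0.17 (SE, adjusted p = 0.304) with BAC. The metabolism list gave 1 call of 14 with either compound, Gys1, muscle glycogen synthase, at 0.81 ± 0.18 (SE, adjusted p = 0.00612) with DNFB and 0.56 ± 0.18 (SE, adjusted p = 0.0492) with BAC. The transcription factor and satellite cell list had a median of 0.03 with DNFB, with Mef2c called lower at -0.39 ± 0.12 (SE, adjusted p = 0.0472) and Eya1, a coactivator in muscle progenitors, called higher (limma's adjusted p = 0.0451). Eya1 read 108, 99.1 and 80.1 in DNFB replicates 1 to 3, 54.5, 76 and 101 in BAC and 58, 35.8 and 17.3 in vehicle, and since vehicle 2 and vehicle 3 were below the 40th percentile of their arrays (46.2 and 57.5), no size is given. The satellite cell factor Pax7 and the early factor Myf5 were too dim to test, and Myod1, the myogenic master factor, was called with BAC, at 0.79 ± 0.23 (SE, adjusted p = 0.0337). In the junction and membrane list Dysf, dysferlin, which reseals torn membranes, was called with DNFB at 0.75 ± 0.23 (SE, adjusted p = 0.04) and with BAC at 0.92 ± 0.23 (SE, adjusted p = 0.0137), and Musk, the receptor kinase of the nerve-muscle junction, was called higher with BAC (limma's adjusted p = 0.0462). Musk read 62.4, 153 and 112 in DNFB replicates 1 to 3, 125, 133 and 104 in BAC and 89, 33.9 and 30.2 in vehicle, with vehicle 2 and vehicle 3 again below that percentile. Single arrays decided most of these calls. Apart from Gys1 with DNFB, each was lost without at least 1 array: without vehicle 1 the calls of Sln, Cacna2d1, Fkbp1a, Mef2c and Dysf with DNFB and of Gys1 and Myod1 with BAC, without vehicle 3 those of Eya1 with DNFB and Musk with BAC, and without BAC 1 that of Dysf with BAC. With a gene's probe sets averaged, the values with DNFB were 0.39 for Gys1, 0.37 for Sln, -0.13 for Cacna2d1, 0.19 for Eya1 and -0.19 for Mef2c, and none of these passed.

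A few muscle genes outside the member list moved far more than the joint level, with the 3 arrays of each compound apart from the vehicle arrays. Xirp1, a Z-disc and adherens junction protein that rises in stretched or injured muscle, had signals of 1181, 1833 and 1499 in DNFB replicates 1 to 3, 598, 1279 and 1477 in BAC and 193, 132 and 293 in vehicle. Its log2 change was 2.82 ± 0.29 (SE, adjusted p = 1.11e-05) with DNFB and 2.32 ± 0.29 (SE, adjusted p = 6.9e-05) with BAC, and 0 of 34 members changed as much in either. Klhl40, which stabilises thin filament proteins, gave 652, 839 and 782 in DNFB replicates 1 to 3, 595, 892 and 1119 in BAC and 271, 268 and 452 in vehicle. The changes were 1.19 ± 0.22 (SE, adjusted p = 0.0017) with DNFB and 1.35 ± 0.22 (SE, adjusted p = 0.000653) with BAC. Csrp3, the muscle LIM protein, known as part of the stretch sensor at the Z-disc, gave 1876, 2904 and 2578 in DNFB replicates 1 to 3, 1540.1, 2388 and 2540.2 in BAC and 902, 1085 and 1453 in vehicle. It changed by 1.09 ± 0.20 (SE, adjusted p = 0.00192) with DNFB and 0.90 ± 0.20 (SE, adjusted p = 0.00785) with BAC. Ankrd1, a titin-binding ankyrin repeat protein that is also induced in other cell types and stood on the heart list, read 452, 399 and 241 in DNFB replicates 1 to 3, 417, 466 and 574 in BAC and 111, 115 and 149.7 in vehicle. Its changes were 1.39 ± 0.21 (SE, adjusted p = 0.000354) with DNFB and 1.83 ± 0.21 (SE, adjusted p = 2.91e-05) with BAC. The calls of Xirp1, Klhl40, Csrp3 and Ankrd1 held without any 1 array in both comparisons. Csrp3, and in the other paragraphs Klhl41, Trim63, Myod1, Musk and Nppb, were named after their values were seen.

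Both ubiquitin ligases that mark muscle proteins for breakdown in wasting were called, in opposite directions. Fbxo32 (atrogin-1) gave 56.9, 151 and 86.5 in DNFB replicates 1 to 3, 136, 111 and 92 in BAC and 213, 219.6 and 247 in vehicle. All 6 treated arrays lay below the vehicle arrays, DNFB 1 also below the 40th percentile of its array (60.7), with changes of -1.17 ± 0.27 (SE, adjusted p = 0.00862) for DNFB and -0.92 ± 0.27 (SE, adjusted p = 0.0328) for BAC. Trim63 (MuRF1) gave 395, 477 and 470.1 in DNFB replicates 1 to 3, 339, 514 and 553 in BAC and 201, 274 and 310.3 in vehicle. All 6 treated arrays lay above the vehicle arrays, with changes of 0.75 ± 0.19 (SE, adjusted p = 0.0155) for DNFB and 0.79 ± 0.19 (SE, adjusted p = 0.0115) for BAC. Klhl41, a relative of Klhl40, was called at 0.73 ± 0.17 (SE, adjusted p = 0.00923) with DNFB and 0.55 ± 0.17 (SE, adjusted p = 0.0437) with BAC. The Trim63 calls were lost without vehicle 1, at an adjusted p of 0.0859 with DNFB and 0.0655 with BAC, and also without array 2 or array 3 of the compound concerned. The BAC calls of Fbxo32 and Klhl41 were lost without any 1 of the vehicle arrays and without BAC 2 or BAC 3, and that of Klhl41 also without DNFB 3.

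**Figure D4:**
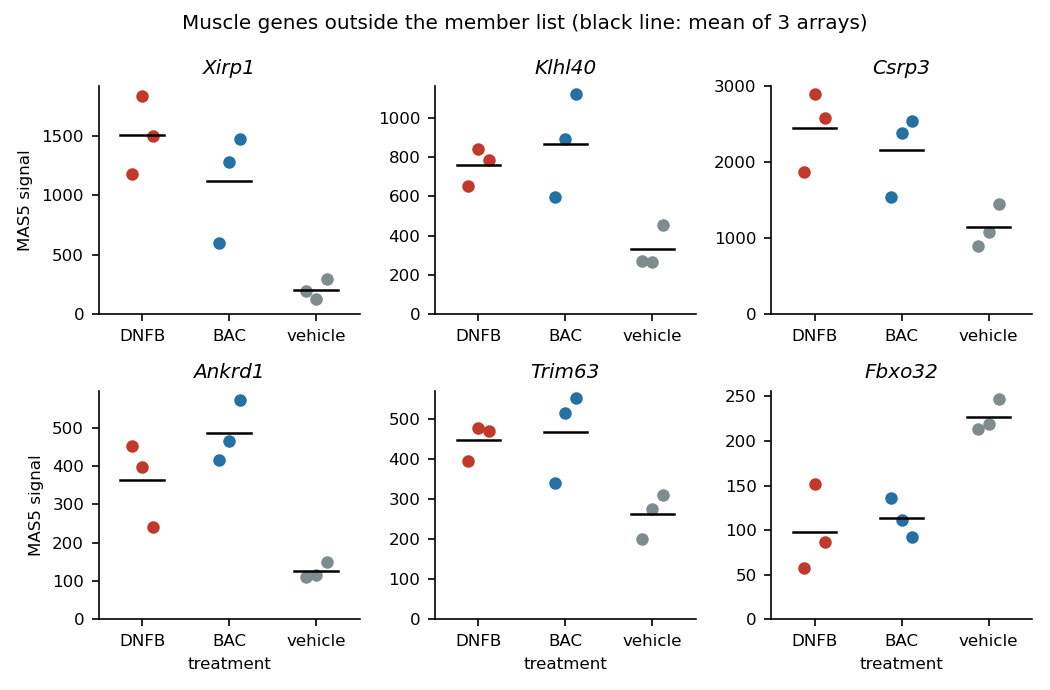
MAS5 signal of 6 muscle genes outside the member list in each array (points) with the group mean (black line), DNFB left, BAC in the middle and vehicle right, each panel with its own axis from 0. In 5 panels all DNFB and BAC points lie above the vehicle points, and in the Fbxo32 panel they lie below.

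When the joint level of the 34 members in the same array was subtracted from each of these genes, the arrays of the compounds and of the vehicle still did not overlap. The remaining difference between DNFB and vehicle was 2.42 for Xirp1, 0.99 for Ankrd1, 0.79 for Klhl40, 0.69 for Csrp3, 0.36 for Trim63, 0.34 for Klhl41 and -1.57 for Fbxo32, as means of log2 values. Between BAC and vehicle it was 2.06 for Xirp1, 1.57 for Ankrd1, 1.09 for Klhl40, 0.63 for Csrp3, 0.53 for Trim63, 0.29 for Klhl41 and -1.18 for Fbxo32. These genes were chosen for their changes, so the differences are a description with no test. In Xirp1 the level relative to the members was -0.25, 0.04 and -0.22 in the DNFB arrays, -0.997, -0.22 and -0.30 in the BAC arrays, and -2.39, -2.98 and -2.32 in the vehicle arrays.

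Marker genes of other tissues of the ear also differed between the groups, and their part in the muscle values was not tested. Of all tested genes, 6.76% were called higher and 7.08% lower with DNFB, and 6.59% higher and 7.64% lower with BAC. A single call in lists as short as these is not read as a result for the tissue. The joint level of 12 epidermal markers differed from vehicle by -0.55 log2 units with DNFB (8 of 12 called lower) and by -0.48 with BAC (7 of 12), and its range was 11.84 to 11.91 in the DNFB arrays, 11.87 to 12.04 in the BAC arrays and 12.31 to 12.51 in the vehicle arrays. That of 12 fibroblast and matrix markers differed by 0.40 with DNFB (6 of 12 called higher) and 0.19 with BAC (2 of 12), and ranged over 11.92 to 11.99 in the DNFB arrays, 11.67 to 11.85 in the BAC arrays and 11.49 to 11.64 in the vehicle arrays. The 10 endothelial markers differed by 0.41 with DNFB (2 of 10 called higher) and 0.24 with BAC (1 of 10). The 12 smooth muscle and pericyte markers differed by 0.22 with DNFB (4 of 9 tested called higher) and 0.27 with BAC (3 of 9). That joint level takes in markers too dim to test, and over the 9 tested ones the median log2 change was 0.27 with DNFB and 0.05 with BAC. With DNFB the joint level differed by 0.05 for 10 adipocyte markers, 0.11 for 7 Schwann cell and nerve markers and 0.00 for 13 cartilage markers. With BAC it differed by 0.02 for the adipocyte markers, -0.04 for the Schwann cell and nerve markers and -0.08 for the cartilage markers. Single markers were called in these lists too, in both directions. With DNFB 2 of 9 tested adipocyte markers were higher and 1 lower, 2 of 7 Schwann cell and nerve markers were higher, and 1 of 12 tested cartilage markers was higher. With BAC 1 of the 7 Schwann cell and nerve markers was higher and 1 lower, and 0 adipocyte or cartilage markers were called. Vehicle 3, the vehicle array with the highest muscle level, had the lowest fibroblast and endothelial levels of the 9 arrays. The joint level of the 10 heart muscle markers differed from vehicle by 0.04 with DNFB and 0.47 with BAC, and ranged over 6.22 to 6.57 in the DNFB arrays, 6.68 to 7.02 in the BAC arrays and 6.14 to 6.61 in the vehicle arrays. On that list the highest signals in any array were 49.2 for Myh6, 35.6 for Myl7, 47.4 for Tnni3 and 77.9 for Nppa, where the median signal of an array was 71.2 to 86.3. Of the 7 heart-list genes bright enough to test, 1 was higher and 1 lower with DNFB, and 2 were higher and 1 lower with BAC. Others of the list were brighter in all 9 arrays: Tnnt2, cardiac troponin T, read 143, 159.8 and 157 in DNFB replicates 1 to 3, 162, 187 and 166 in BAC and 213, 344 and 265 in vehicle, and it was lower with both compounds, at -0.75 ± 0.19 (SE, adjusted p = 0.0134) with DNFB and -0.60 ± 0.19 (SE, adjusted p = 0.0412) with BAC. Both Tnnt2 calls were lost without vehicle 2 and with its probe sets averaged, and that with BAC also without vehicle 3, DNFB 3 or any 1 BAC array. Mybpc3, cardiac myosin-binding protein C, lay between 135 and 199.7, and Myl4, the atrial light chain, between 171 and 259, with neither called against vehicle. Nppb, a natriuretic peptide on that list, read 105, 116 and 119 in DNFB replicates 1 to 3, 192, 397 and 278 in BAC and 77.7, 141 and 122 in vehicle. It was called between BAC and vehicle, at 1.21 ± 0.26 (SE, adjusted p = 0.00481), and between DNFB and BAC, at -1.18 ± 0.26 (SE, adjusted p = 0.0114), while DNFB against vehicle gave 0.03 ± 0.26 (SE, adjusted p = 0.96). Skeletal muscle itself was present in all 9 arrays by its defining genes, Acta1 being at 7019 or more throughout.

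**Figure D5:**
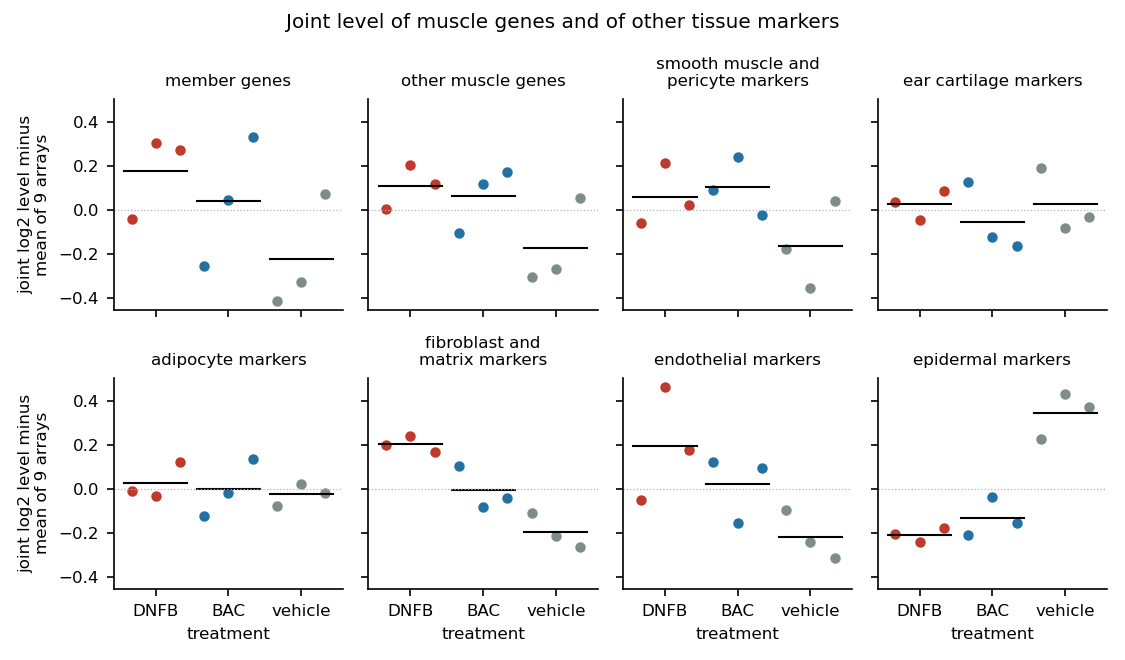
Joint log2 level of 8 gene lists in each array minus the list's mean over the 9 arrays, DNFB left, BAC in the middle and vehicle right, with the group mean as a black line. The member genes and the other muscle genes spread widely within each treatment, while the epidermal markers are lower in all 6 treated arrays than in the vehicle arrays.

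Signs of RNA quality differed between the groups. The Gapdh signal at the 3′ end over that at the 5′ end was 0.841, 1.36 and 0.943 in the DNFB arrays, 0.930, 0.932 and 0.917 in the BAC arrays, and 0.856, 0.869 and 0.880 in the vehicle arrays, and the same ratio for actin was 1.09, 1.28 and 1.23 in the DNFB arrays, 1.18 to 1.22 in the BAC arrays and 1.05 to 1.10 in the vehicle arrays. In both ratios all BAC arrays, DNFB 2 and DNFB 3 lay above all vehicle arrays, whereas DNFB 1, the DNFB array with the lowest joint muscle level, lay within the vehicle range for actin and below it for Gapdh. DNFB 2, with the highest Gapdh ratio, held the highest signal of 12 members. Within the DNFB arrays and within the vehicle arrays, both ratios had the order of the joint level. Within the BAC arrays neither had it. BAC 3, with the highest joint level of the 9 arrays, had the lowest Gapdh ratio of the BAC arrays, 0.917, and its actin ratio lay between those of BAC 1 and BAC 2. The part of RNA quality in the member values was not tested, and without DNFB 2 the joint difference between DNFB and vehicle was 0.34. Different probe sets of a gene did not always say the same. For 12 members with more than 1 probe set, 14 of the 18 second probe sets bright enough to fit were above 0 with DNFB and 12 of 18 with BAC, but none of the second ones was called, and in a fit of single probe sets 8 of the 52 member probe sets were called with DNFB, against 10.4% of all probe sets, and 1 with BAC, against 10.2%.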

How the data were processed

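Per the labels' protocols, the RNA was made into biotin-labelled cRNA with an Affymetrix 3′ IVT kit for the arrays. The deposited tables hold linear intensities, 1 signal per probe set and array, made with MAS5 and Affymetrix Expression Console per the submitters' processing notes; no source used here gives the versions or options. The mean without the highest and lowest 2% of probe sets was 250.001 on each array, so a signal is relative to the other genes of its array, and less of one tissue's RNA raises the others. No detection calls, scan dates or batches were used, so low signal could not be separated from background.

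Control probe sets (64), those with several symbols (932) and those the annotation does not list (9160) were left out; 34945 had 1 symbol. Each gene was taken by its brightest probe set and tested if above the array's 40th percentile in at least 3 of 9 arrays. limma 3.58.1 in R 4.3.3 was fitted to log2(signal + 16) over all 9 arrays, with an intensity trend and Benjamini-Hochberg adjustment over all 14122 genes, two-sided; the pseudocount of 16 understates changes of dim genes. The 3 comparisons share arrays. The code was tested on simulated data. The members, gene lists and alternatives were chosen with earlier results of these data known. Values per array were given, in each role, for the 3 brightest members and those with the largest change against vehicle. The others were given mostly by single values. From the other muscle lists and the heart list, up to 3 called genes with the largest DNFB change were named, exceptions being stated. Markers of other tissues were given by list, apart from Fabp4 below. Over all genes, same-numbered arrays did not deviate together. Among the members, replicate 1 was the lowest array of its group for 30 of 34 with DNFB, 31 with BAC and 23 with vehicle. The labels do not tie the numbers to animals, so replicate numbers were not used as pairs in the main fit. A fit with the numbers as a block is given below. Sequences are from RefSeq.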

Additional observations from a re-analysis of the deposited data

How the results depend on the processing

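The joint muscle level kept its direction in every alternative but 1: DNFB minus vehicle (0.40) lay between 0.30 and 0.55, BAC minus vehicle (0.26) between 0.12 and 0.41 and DNFB minus BAC (0.14) between -0.01 and 0.28 when each array was left out in turn, the last turning below 0 without BAC 1. The number of members called was less stable. For DNFB against vehicle, 10 calls became 5 with no filter on low values, 5 with each array centred on its median, 4 with quantile normalization, 3 with a gene's probe sets averaged (Tnnc2, Actn2 and Atp2a1) and 0 without limma's intensity trend, and 1 to 12 with an array left out. For BAC against vehicle, 1 call became 0 with median centring and 0 without the trend, and 0 to 8 with an array left out. For DNFB against BAC, 0 calls became at most 1 (0 to 1, Trdn without DNFB 1). The cause was not tested. No alternative reversed a member's direction where it was called. Of 680 values of the members under the alternatives, 583 kept their side of the threshold with DNFB, 76 fell short of it and 21 passed it newly; with BAC these were 662, 4 and 14. With probe sets averaged per gene, Cacna2d1 reversed to -0.13 and Fabp4, an adipocyte marker, to -0.16 with DNFB.

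Without the intensity trend, all genes called numbered 1202 for DNFB against vehicle (1955 with it), 1387 for BAC against vehicle (2009) and 402 for DNFB against BAC (961). For DNFB against vehicle they numbered 1685 with no filter, 1417 with median centring, 1834 with quantile normalization and 1370 with probe sets averaged. With an array left out they lay between 1249 and 1929. Median centring moved the share of higher among the BAC calls to 34%, against 46.3% as deposited, and the median BAC change of all genes to -0.12, against -0.03. Without the trend, Trim63 and Klhl41 lost their calls with both compounds, and Csrp3 and Fbxo32 theirs with BAC. The calls of Xirp1, Klhl40 and Ankrd1 held without it.

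Same-numbered arrays correlated between -0.122 and 0.153 in their deviations from the group means, with 1 of 9 pairs over 0.1, and the labels do not say whether ears of 1 mouse share a number, so whether the numbers pair the arrays was not settled. Among the members, replicate 1 was the lowest array of its group for 30 of 34 with DNFB, 31 with BAC and 23 with vehicle, and between same-numbered arrays the joint level differed from vehicle by 0.37, 0.63 and 0.20 with DNFB and by 0.16, 0.37 and 0.25 with BAC. With the replicate block, 14 members were called for DNFB against vehicle (6.34% of tested genes higher), 4 for BAC against vehicle (Actn2, Atp2a1, Ckm and Eno3; 6.37%) and 0 for DNFB against BAC.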
